A study of Mus musculus with 6 samples.

Results

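The genes described here are 40 cell cycle genes, taken by symbol from a table of 16671 genes and divided by the phase in which their products act. DNA replication genes, 16 in number, act at the entry into S phase and during DNA synthesis, and mitosis genes, 24 in number, act in chromosome segregation and cell division. They were taken by name, with no threshold on a measured value. All 40 were found in the table, and none was lost to a filter on low values.

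Cells that leave quiescence raise G1 cyclins, which with their kinases phosphorylate the retinoblastoma family of pocket proteins and so release E2F transcription factors, whose targets license replication origins, open the helicase and supply deoxynucleotides. The mitotic genes are switched on later, in G2, by the MuvB complex with B-Myb and Foxm1, through a promoter element called the CHR (cell cycle genes homology region) and nearby CCAAT boxes bound by NF-Y. Fibro-adipogenic progenitors (FAPs), the mesenchymal cells between muscle fibres, are largely quiescent in resting muscle and divide for a few days after injury.

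The study compared FAPs given C1q at 100 µg/ml with FAPs given vehicle, with 3 libraries in each group. C1q is the recognition protein of the classical complement pathway. All cells were sorted by flow cytometry from hindlimb muscle of wild type mice aged 4 to 5 months, with no transgene or gene deletion named in either group, and the input to each library was 10 ng RNA, amplified with a SMART-Seq kit for small samples. The labels name FAPs as the cell type, whereas the wording on RNA extraction names muscle stem cells, and they state neither the length of the treatment nor whether the replicates are separate mice or cultures. The p-values therefore measure only how far these libraries spread, and that spread may be technical.

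Reads on genes of the table were 31929119, 24046020 and 29818424 in the C1q libraries and 38861152, 29325341 and 5379209 in the vehicle libraries. Values are read counts divided by a size factor for each library, called normalised reads below. A single read is worth 4.25 normalised reads in vehicle replicate 3 and under 1 in the other libraries, so vehicle replicate 3 carries the largest counting error. Markers counted as higher or lower passed the limma-trend test described below, which called 19.7% of all genes higher and 18.7% lower. The summed level of 8 FAP markers was 349000 to 445000 normalised reads in the C1q libraries and 226000 to 267000 in the vehicle libraries, with 5 of the 8 higher and 1 lower. The summed level of 7 muscle stem cell and myoblast markers was 5050 to 6790 normalised reads in the C1q libraries and 7720 to 24300 in the vehicle libraries, with 5 of the 7 lower, and for 5 myofibre markers it was 9970 to 15500 against 14700 to 56700, with 2 of the 5 lower. Macrophage markers, of which 6 of 7 are in the table and Ptprc is not, summed to 480 to 819 normalised reads with C1q and 530 to 799 with vehicle, with 1 of the 6 lower, and 5 endothelial markers to 572 to 1270 with C1q and 608 to 1290 with vehicle, with 0 of the 5 called by limma-trend, edgeR or DESeq2 and 0 at an unadjusted limma-trend p under 0.05. The sums of 3 other lists were higher with C1q, with no overlap between the groups. They were 3500 to 5320 normalised reads with C1q and 1990 to 2350 with vehicle for 5 mural cell markers (2 higher), 199 to 223 with C1q and 76.5 to 133 with vehicle for 4 Schwann cell markers (2 higher), and 1730 to 3070 with C1q and 689 to 1020 with vehicle for 3 tenocyte markers (1 higher and 1 lower). Of 4 lymphocyte markers 1 is in the table, at 2.92 to 6.34 normalised reads with C1q and 3.86 to 5.24 with vehicle. No marker of these lists that is in the table is at 0 in all libraries. The part that these other cell types have in the cell cycle values was not tested.

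Cell cycle genes of both phases leaned lower in the C1q libraries, and Mcm4 was the only one of the 40 called higher. Of the 16 replication genes, 8 fell (Ccne1, Mcm3, Mcm5, Mcm7, Pcna, Rrm2, Tyms and Tk1), 1 rose (Mcm4) and 7 did not pass the test. Of the 24 mitosis genes, 6 fell (Cdk1, Plk1, Birc5, Cdc20, Ube2c and Tpx2) and 18 did not pass. The test was limma-trend on log2(value + 1) fitted over all 16671 genes, with Benjamini-Hochberg adjusted p below 0.05 as the call, and every log2 fold change below is C1q over vehicle on that scale, ± its standard error. By the same rule 18.7% of all genes were called lower and 19.7% higher (38.3% in either direction), so the 6 of 24 mitosis genes are close to the share of all genes and the 8 of 16 replication genes lie above it. With limma-trend the mitosis genes called higher numbered 0, and 2 of them were higher at an unadjusted p under 0.05. edgeR and DESeq2, run on the recovered reads, also called 0 higher. edgeR called 9 mitosis genes lower, beside 25.1% of all genes lower and 23.4% higher, and DESeq2 called 5, beside 21.3% lower and 21.8% higher.

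The median log2 fold change was -0.41 over the replication genes, of which 13 had a negative value, and -0.24 over the mitosis genes, of which 18 had a negative value. Over all genes tested it was 0.029. All 3 C1q libraries lay below all 3 vehicle libraries for 8 replication genes and 8 mitosis genes, which 25.4% of all genes also did, and all 3 lay above for 1 replication gene and 3 mitosis genes, against 26.8% of all genes. Whether the phases differ from each other was not tested. In these bulk samples, fewer cycling cells and less RNA of a gene per cycling cell cannot be told apart.

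Summed over the 16 replication genes, the libraries held 358, 355 and 353 CPM (reads scaled to the read total of the library) with C1q and 415, 441 and 379 CPM with vehicle. Over the 24 mitosis genes they held 283, 272 and 312 CPM with C1q and 324, 373 and 292 CPM with vehicle. The groups do not overlap in the replication sum, and in the mitosis sum C1q replicate 3 lies above vehicle replicate 3. Within the vehicle group the mitosis genes moved together, as vehicle replicate 2 was the highest of the 3 for 22 of 24 genes and vehicle replicate 3 the lowest for 18 of 24. The replication genes showed a like but weaker order, with vehicle replicate 2 highest for 9 of 16 and vehicle replicate 3 lowest for 12 of 16. The coefficient of variation of a mitosis gene, at the median, was 7.92% among the C1q libraries and 14.8% among the vehicle libraries, and for a replication gene it was 8.79% and 10.9%. The vehicle values include the counting error of vehicle replicate 3. Its mitosis genes rest on 1569 reads in all, against 12592 and 10948 in vehicle replicates 1 and 2. The part of this error in the wider vehicle spread was not tested.

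The number of calls changed when single libraries were left out, for the cell cycle genes and for the whole table. Mitosis genes called lower numbered 3, 2 and 3 without C1q replicate 1, 2 and 3, and 3, 4 and 11 without vehicle replicate 1, 2 and 3. Replication genes called lower numbered 5, 6 and 7 without C1q replicate 1, 2 and 3, and 6, 7 and 9 without vehicle replicate 1, 2 and 3. Of all genes the same fits called 14.2%, 14.2% and 13.6% lower without C1q replicate 1, 2 and 3, and 15.6%, 16.9% and 21.5% lower without vehicle replicate 1, 2 and 3. They called 14.4%, 14.0% and 14.1% higher without C1q replicate 1, 2 and 3, and 17.0%, 18.1% and 21.9% higher without vehicle replicate 1, 2 and 3. Without the shallow vehicle replicate 3, the genes that joined were Mcm2 on the replication side and Ccnb2, Foxm1, Aurka, Aurkb and Cenpa on the mitosis side. Calls that held in each of the 6 fits that leave out 1 library were those of Mcm4, Mcm7, Pcna, Rrm2, Tyms, Tk1, Plk1 and Birc5.

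**Figure D1:**
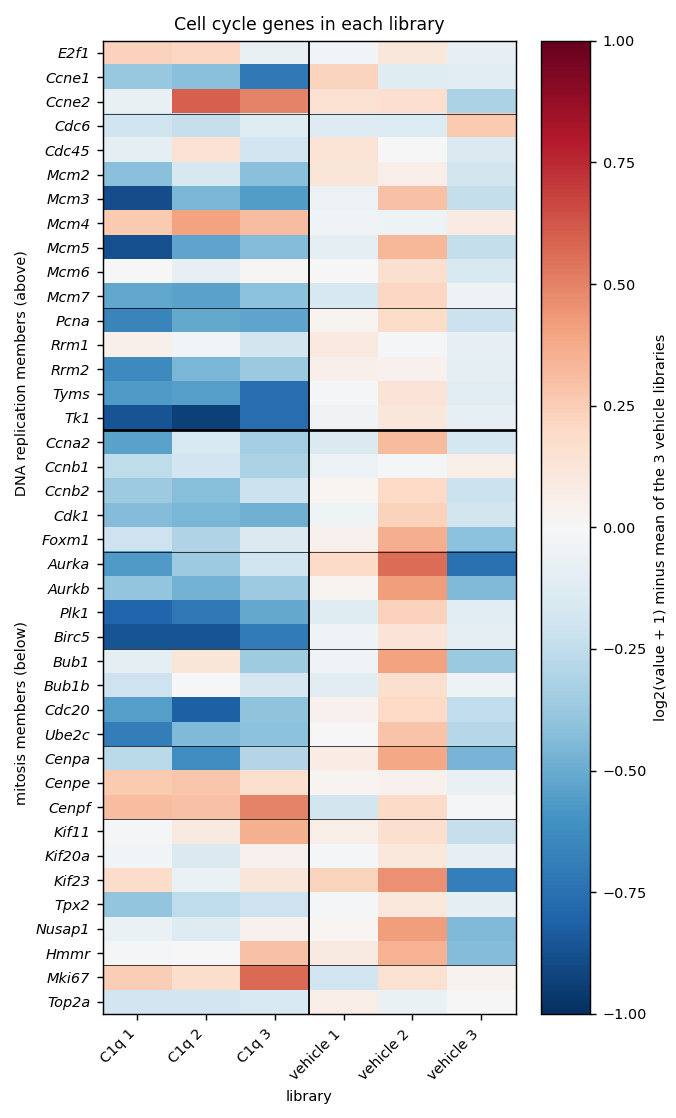
Each row is a cell cycle gene and each column a library, with C1q libraries left of the vehicle libraries, and the colour gives log2(value + 1) minus the mean of the 3 vehicle libraries, so blue is lower and red higher. Tk1, Birc5, Plk1, Pcna and Tyms are blue in every C1q library, Mcm4 is red in every C1q library, and the mitosis block shows vehicle replicate 2 in red and vehicle replicate 3 in blue for most genes.

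The promoter windows of replication and mitosis genes differed in the motifs they held. In RefSeq promoter windows of build GRCm38.p6, which run from 250 bases before to 50 bases after an annotated start, 33 of the 40 genes had an entry, in 15 windows of replication genes and 19 windows of mitosis genes. The 3 motifs were searched on both strands: an E2F motif spelled TTTGGCGC, TTTCCCGC, TTTCGCGC or TTTGCCGC, the CCAAT box spelled CCAAT, and the CHR spelled TTTGAA. The 6 windows below are shown because they hold the motifs discussed here. Mcm3 and Mcm5 have pairs of E2F matches, Plk1, Cdc20 and Mki67 have CCAAT and CHR matches, and Cdk1 has all 3 motifs. Of their genes only Mki67 did not pass the test, and all the others fell, so these windows cannot relate motifs to response. They were picked as examples and do not stand for all windows of a phase. Each is written 5′ to 3′ on the strand of the gene, and capitals mark matches to any of the 3 motifs in either direction. The windows are Mcm3 at chr1:20820263-20820562 (minus strand), Mcm5 at chr8:75109259-75109558 (plus strand), Plk1 at chr7:122159185-122159484 (plus strand), Cdk1 at chr10:69352863-69353162 (minus strand), Cdc20 at chr4:118437294-118437593 (minus strand) and Mki67 at chr7:135716330-135716629 (minus strand).
Mcm3: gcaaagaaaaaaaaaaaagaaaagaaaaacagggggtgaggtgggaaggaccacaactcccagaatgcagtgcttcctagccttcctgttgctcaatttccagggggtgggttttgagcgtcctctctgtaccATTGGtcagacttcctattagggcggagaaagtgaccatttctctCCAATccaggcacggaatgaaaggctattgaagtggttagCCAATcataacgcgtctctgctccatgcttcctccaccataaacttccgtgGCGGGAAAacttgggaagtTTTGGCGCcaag
Mcm5: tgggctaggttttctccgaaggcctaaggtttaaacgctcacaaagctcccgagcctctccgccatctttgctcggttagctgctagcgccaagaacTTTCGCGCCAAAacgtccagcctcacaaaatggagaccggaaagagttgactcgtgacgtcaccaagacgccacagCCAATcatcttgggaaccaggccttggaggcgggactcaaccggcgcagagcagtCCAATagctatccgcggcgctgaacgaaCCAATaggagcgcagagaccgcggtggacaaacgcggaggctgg
Plk1: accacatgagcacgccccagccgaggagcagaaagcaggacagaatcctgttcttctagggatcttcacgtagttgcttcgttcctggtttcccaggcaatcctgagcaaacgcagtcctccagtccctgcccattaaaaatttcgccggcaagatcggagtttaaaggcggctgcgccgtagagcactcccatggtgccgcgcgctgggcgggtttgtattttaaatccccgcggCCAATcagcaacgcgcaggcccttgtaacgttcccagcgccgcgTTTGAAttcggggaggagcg
Cdk1: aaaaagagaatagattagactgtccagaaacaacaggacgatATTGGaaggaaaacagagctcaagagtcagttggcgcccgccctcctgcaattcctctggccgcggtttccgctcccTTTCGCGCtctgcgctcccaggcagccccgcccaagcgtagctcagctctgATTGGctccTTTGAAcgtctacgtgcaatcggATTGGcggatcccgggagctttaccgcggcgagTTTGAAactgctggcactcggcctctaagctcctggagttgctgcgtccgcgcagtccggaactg
Cdc20: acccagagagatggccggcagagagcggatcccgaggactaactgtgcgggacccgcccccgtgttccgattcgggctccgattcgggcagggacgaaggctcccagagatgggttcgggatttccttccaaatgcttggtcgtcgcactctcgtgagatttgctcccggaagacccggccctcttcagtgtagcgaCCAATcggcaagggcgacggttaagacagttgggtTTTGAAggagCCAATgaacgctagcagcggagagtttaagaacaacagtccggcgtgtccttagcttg
Mki67: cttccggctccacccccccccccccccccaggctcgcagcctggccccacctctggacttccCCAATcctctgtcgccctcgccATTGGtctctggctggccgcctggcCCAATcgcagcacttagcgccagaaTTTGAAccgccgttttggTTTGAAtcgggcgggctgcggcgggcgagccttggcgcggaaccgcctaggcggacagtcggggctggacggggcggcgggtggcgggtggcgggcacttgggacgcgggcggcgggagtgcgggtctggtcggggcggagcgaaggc

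The E2F motif was matched in 33.3% of replication windows (those of Mcm3, Mcm5, Mcm6, Cdc6 and 1 of the 2 of Mcm7) and in 5.26% of mitosis windows (that of Cdk1), against 2.26% of all 32851 windows of the same length and 3.66% of the 15672 windows of genes in the table. The CHR was matched in 13.3% of replication windows (Mcm2 and Cdc45) and in 73.7% of mitosis windows, against 17.9% of all windows and 12.4% of those of genes in the table. The CCAAT box was matched in 66.7% of replication windows and 89.5% of mitosis windows, against 37.4% and 37.3%. The mitosis share for E2F is a single window and lies close to that of genes in the table. In mitosis windows the 18 CHR matches had a median position 13.5 bases before the start, and 27 of the 43 CCAAT matches lay within 100 bases before it. Matches of different motifs overlapped once, in a Mcm7 window, and matches of the same motif overlap each other in the windows of Mcm5 and Mcm6 (a pair of E2F matches each) and of Ube2c (a pair of CCAAT matches). The match counts include these pairs.

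In the sequences above, Mcm3 has its E2F matches 23 and 42 bases after the start and Mcm5 has its pair 149 and 145 bases before it, each with 3 CCAAT matches. Cdc20 has the compact arrangement of CCAAT matches 50 and 5 bases before the start around a CHR match 15 bases before it. Mki67 carries 3 CCAAT and 2 CHR matches, more than Plk1 with 1 of each. The E2F motif was in 28.6% of the windows of genes called lower and 10.0% of those of the other genes, and the CHR in 28.6% and 60.0%, shares that rest on 14 and 20 windows and do not keep the phases apart. Ccne1, Tk1, Tyms and Birc5, which fell, had no match to any of the 3 motifs in these windows, nor had E2f1 and Nusap1, which did not pass. A match describes the letters only and is not evidence of binding.

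**Figure D2:**
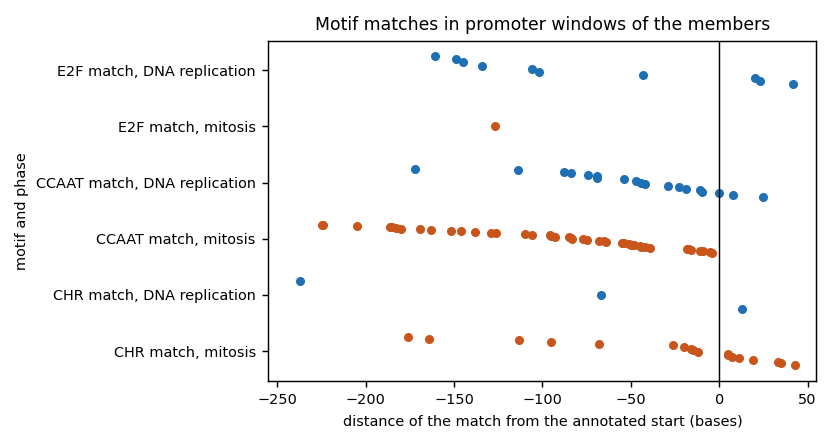
Each point is 1 motif match, placed by its distance in bases from the annotated start (vertical line at 0), with a band of points for each motif (height within a band carries no value) in DNA replication genes (blue) and mitosis genes (orange). E2F matches are nearly all in replication genes, 10 against 1, and CHR matches nearly all in mitosis genes, 18 against 3, many of them close to the start.

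The groups by role described below hold 8 genes or fewer each. Their counts stand beside 18.7% of all genes called lower and 19.7% called higher, and differences between the groups were not tested. Among the G1/S regulators, 1 of 3 fell. Ccne1 encodes cyclin E1, which activates Cdk2 at the entry into S phase, and it had 179.7, 174 and 142 normalised reads in the C1q libraries, against 273, 215 and 217 in the vehicle libraries. The groups do not overlap, and Ccne1 fell (log2 fold change -0.50 ± 0.15, adjusted p = 0.0332), although the call was lost without C1q replicate 1, 2 or 3 or vehicle replicate 1 (adjusted p 0.0564 to 0.116). E2f1, the activator of S phase genes, had 855, 840.1 and 693 normalised reads in the C1q libraries, against 713, 787 and 689 in the vehicle libraries, with overlapping groups (log2 fold change 0.12 ± 0.10, adjusted p = 0.388). Ccne2, which encodes cyclin E2, was the lowest gene of the 40, with 25.4, 40.9 and 38.1 normalised reads in the C1q libraries, against 29.7, 30.1 and 21.3 in the vehicle libraries (log2 fold change 0.34 ± 0.29, adjusted p = 0.388). Its 95% interval of -0.33 to 1.01 leaves room for a change in either direction, and it shares 609 exon bases with Ints8 on the opposite strand, which did not pass (log2 fold change -0.039 ± 0.081, adjusted p = 0.739).

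Origin licensing and helicase genes divided, with 3 of 8 lower and 1 higher. The proteins Mcm2 to Mcm7 form the ring-shaped replicative helicase, 1 copy of each in the ring. Mcm4 (chr16:15623897-15637400 in GRCm38.p6) had 1017, 1124 and 1050.4 normalised reads in the C1q libraries, against 829.8, 821 and 897 in the vehicle libraries. Every C1q library lay above every vehicle library, and Mcm4 rose (log2 fold change 0.32 ± 0.072, adjusted p = 0.0103), the only cell cycle gene of the 40 to do so. Leaving out a library gave adjusted p 0.00655 to 0.0496, and with every library thinned to 5379209 reads the call was lost (log2 fold change 0.24, adjusted p = 0.0816).

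Other subunits of the same ring fell. Mcm7 had 592, 588 and 639 normalised reads in the C1q libraries, against 762, 984 and 820.5 in the vehicle libraries (log2 fold change -0.49 ± 0.10, adjusted p = 0.00867), with no overlap. It shares 321 exon bases with Ap4m1 and 64 with Cops6 on the opposite strand, of which Cops6 fell (log2 fold change -0.61 ± 0.11, adjusted p = 0.00331) and Ap4m1 did not pass. Mcm3 had 292, 393 and 367 normalised reads in the C1q libraries, against 519, 663 and 459 in the vehicle libraries (log2 fold change -0.63 ± 0.16, adjusted p = 0.0187), a call lost without C1q replicate 1 (adjusted p = 0.0636). Mcm5 had 149, 191 and 204 normalised reads in the C1q libraries, against 259, 347 and 234 in the vehicle libraries (log2 fold change -0.61 ± 0.19, adjusted p = 0.0335). C1q replicate 3 came close to vehicle replicate 3 for Mcm5, and its call was lost without C1q replicate 1 or 2 or vehicle replicate 1 or 2 (adjusted p 0.0587 to 0.109).

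Mcm2 and Mcm6 did not pass. Mcm2 had 340.3, 406 and 339.9 normalised reads in the C1q libraries, against 494, 476 and 399.6 in the vehicle libraries, in which C1q replicate 2 lies above vehicle replicate 3 (log2 fold change -0.33 ± 0.12, adjusted p = 0.0609). Its adjusted p was 0.0407 with the replicate number as a block and 0.0174 without vehicle replicate 3. Mcm6 had 979, 929 and 992 normalised reads in the C1q libraries, against 980.1, 1097 and 884 in the vehicle libraries (log2 fold change -0.025 ± 0.090, adjusted p = 0.85), and its 95% interval of -0.24 to 0.18 does not reach the fall fitted for Mcm7. Per kilobase of transcript, Mcm4 made up 30.3%, 30.9% and 29.3% of the summed level of the 6 subunits in the C1q libraries and 21.4%, 18.4% and 23.9% in the vehicle libraries, a ratio chosen after the values were seen. The loading factor Cdc6 and the helicase partner Cdc45 stood at 74.0 to 93.6 normalised reads with C1q and 76.5 to 106 with vehicle, with overlapping groups (log2 fold change -0.18 ± 0.18, adjusted p = 0.446 for Cdc6; log2 fold change -0.045 ± 0.17, adjusted p = 0.861 for Cdc45). Cdc45 shares 209 exon bases with Ufd1 on the opposite strand, which fell (log2 fold change -0.47 ± 0.092, adjusted p = 0.00606).

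Of the 5 genes of the sliding clamp and of nucleotide supply 4 were lower, beside 18.7% of all genes, and the fifth, Rrm1, did not pass. This was the highest share of calls among the role groups, in a group of only 5 genes. Tk1 (chr11:117815519-117826087) encodes thymidine kinase, which salvages thymidine, and it had 146, 138 and 156 normalised reads in the C1q libraries, against 259, 288 and 251 in the vehicle libraries. The highest C1q library is far below the lowest vehicle library, and Tk1 fell the most of all 40 genes (log2 fold change -0.85 ± 0.11, adjusted p = 0.00118). Tyms encodes thymidylate synthase, which makes the same nucleotide from deoxyuridylate, and it had 259, 261 and 226 normalised reads in the C1q libraries, against 379, 418 and 353 in the vehicle libraries (log2 fold change -0.62 ± 0.11, adjusted p = 0.00356). Transcripts of both routes to thymidylate were thus lower, with no overlap between the groups.

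Pcna, the clamp that holds polymerases on DNA, had 655, 726 and 716 normalised reads in the C1q libraries, against 1055, 1178 and 893 in the vehicle libraries (log2 fold change -0.57 ± 0.11, adjusted p = 0.00542). Rrm2, the small subunit of ribonucleotide reductase, had 312, 354 and 375 normalised reads in the C1q libraries, against 501, 499.6 and 455 in the vehicle libraries (log2 fold change -0.49 ± 0.10, adjusted p = 0.00704). Both fell without overlap and kept the call when any 1 library was left out, with adjusted p up to 0.0261 and 0.0286. Rrm1, the large subunit of the same enzyme, had 2105, 1984 and 1781 normalised reads in the C1q libraries, against 2168, 2009.9 and 1913 in the vehicle libraries, with overlapping groups (log2 fold change -0.055 ± 0.084, adjusted p = 0.641; 95% interval -0.25 to 0.14). Pseudogene copies of Pcna and Tyms are annotated (Pcna-ps1, Pcna-ps2 and Tyms-ps), and reads shared with them could not be separated here. Tk1 shares 83 exon bases with Afmid on the opposite strand, and Afmid did not pass the test (log2 fold change 0.17 ± 0.13, adjusted p = 0.328).

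**Figure D3:**
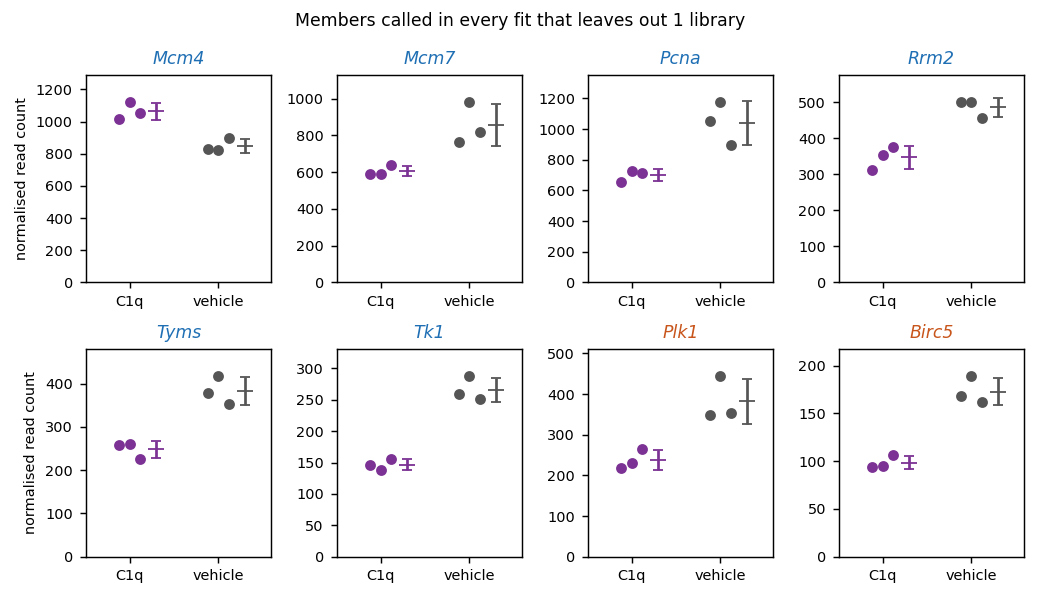
Normalised read count per library (points) with mean and SD (n = 3 each) for the 8 genes called in each fit that leaves out 1 library, with C1q left of vehicle in each panel and axes from 0, replication genes titled in blue and mitosis genes in orange. In 7 panels all C1q points lie below all vehicle points, and in the Mcm4 panel all lie above.

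Of the mitosis genes, the kinases and their partner survivin showed the lowest median, -0.54, with 2 of 4 lower. Birc5 (chr11:117849237-117855743) encodes survivin, a subunit of the chromosomal passenger complex, and it had 94.4, 94.5 and 106 normalised reads in the C1q libraries, against 168, 189 and 162 in the vehicle libraries. No vehicle library came near the C1q range, and Birc5 fell (log2 fold change -0.81 ± 0.14, adjusted p = 0.00299), a call that leaving out a library did not end and thinning to 5379209 reads did (adjusted p = 0.0954). Plk1 (chr7:122159435-122169884), the kinase that drives centrosome maturation and mitotic entry, had 219, 231 and 265 normalised reads in the C1q libraries, against 348, 445 and 353 in the vehicle libraries and fell (log2 fold change -0.67 ± 0.13, adjusted p = 0.0059). Aurkb, the kinase of the passenger complex, had 132, 125 and 134 normalised reads in the C1q libraries, against 177, 232 and 128 in the vehicle libraries, and Aurka, the spindle pole kinase, had 96.5, 111 and 125 normalised reads in the C1q libraries, against 164, 212 and 85.0 in the vehicle libraries. For both, vehicle replicate 3 lies at or near the bottom and vehicle replicates 1 and 2 lie above every C1q library. Neither passed (log2 fold change -0.41 ± 0.21, adjusted p = 0.171 for Aurkb; log2 fold change -0.38 ± 0.32, adjusted p = 0.387 for Aurka), and both passed without vehicle replicate 3 (adjusted p = 0.0144 and 0.0133). In vehicle replicate 3 the level of Aurka rests on 20 reads.

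Cyclins and their kinase gave 1 call in 5. Cdk1, the kinase that triggers mitosis, had 445, 436 and 429.6 normalised reads in the C1q libraries, against 581, 705 and 527 in the vehicle libraries and fell (log2 fold change -0.46 ± 0.11, adjusted p = 0.0157). The 3 C1q values lie close together below all vehicle values, and the call was lost without C1q replicate 2 or 3 (adjusted p 0.053 to 0.0566). Ccnb1, the main mitotic B cyclin, had 234, 245 and 224 normalised reads in the C1q libraries, against 269, 277 and 293 in the vehicle libraries (log2 fold change -0.26 ± 0.10, adjusted p = 0.072). Its groups do not overlap, yet it missed the threshold, and with edgeR on the recovered reads its adjusted p was 0.0477.

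Ccnb2, the second B cyclin, had 199, 191 and 221 normalised reads in the C1q libraries, against 260.5, 296 and 221 in the vehicle libraries, so that C1q replicate 3 and vehicle replicate 3 are level (log2 fold change -0.34 ± 0.14, adjusted p = 0.0889). Ccna2, cyclin A2 of S phase and G2, overlapped between the groups (log2 fold change -0.34 ± 0.17, adjusted p = 0.145), as did Foxm1, the transcription factor of G2 genes, with 289, 271 and 301 normalised reads in the C1q libraries, against 343, 429 and 251 in the vehicle libraries (log2 fold change -0.22 ± 0.19, adjusted p = 0.398). Ccna2 shares 510 exon bases with Exosc9 on the opposite strand, which fell (log2 fold change -0.37 ± 0.078, adjusted p = 0.00803). Without vehicle replicate 3, Ccnb2 and Foxm1 passed (adjusted p = 0.0213 and 0.0296). Ccnb1 and Ccnb2 have annotated pseudogenes, Ccnb1-ps and Ccnb2-ps, and Ccnb1-ps itself held 11 reads over the C1q libraries and 16 over the vehicle libraries.

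Of the 4 genes in the group of the spindle checkpoint and the anaphase-promoting complex, Cdc20 and Ube2c fell, and Bub1 and Bub1b did not pass. Cdc20, the activator of the anaphase-promoting complex, had 268, 222 and 297 normalised reads in the C1q libraries, against 406, 452 and 332 in the vehicle libraries (log2 fold change -0.59 ± 0.15, adjusted p = 0.0188). Ube2c, the ubiquitin-conjugating enzyme of that complex, had 132, 157 and 159.9 normalised reads in the C1q libraries, against 214, 259 and 174 in the vehicle libraries (log2 fold change -0.51 ± 0.17, adjusted p = 0.0485). For both genes the groups do not overlap, but the gap for Ube2c is narrow, between C1q replicate 3 and vehicle replicate 3. The Cdc20 call was lost without C1q replicate 1 or 2 or vehicle replicate 1 or 2 (adjusted p 0.0516 to 0.066). The Ube2c call was lost without C1q replicate 1, 2 or 3 or vehicle replicate 1 or 2 (adjusted p 0.0882 to 0.152), and also with a pseudocount of 5 (adjusted p = 0.0513).

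Ube2c also shares 592 exon bases with Tnnc2, a fast muscle troponin on the opposite strand. Tnnc2 had 442, 726 and 627 normalised reads in the C1q libraries, against 5231, 2710.2 and 1326 in the vehicle libraries and fell (log2 fold change -2.18 ± 0.45, adjusted p = 0.0072). Whether reads were counted by strand is not given in the sources used here, so reads of the shared stretch cannot be assigned to 1 of the genes. Cdc20 shares 53 exon bases with Elovl1, which fell too (log2 fold change -0.65 ± 0.059, adjusted p = 0.000325). The checkpoint kinases Bub1, with 97.9, 114 and 81.4 normalised reads in the C1q libraries, against 102, 139 and 80.8 in the vehicle libraries, and Bub1b, with 298, 343 and 306 normalised reads in the C1q libraries, against 318, 385 and 332 in the vehicle libraries, overlapped between groups (log2 fold change -0.11 ± 0.23, adjusted p = 0.744 for Bub1; log2 fold change -0.13 ± 0.11, adjusted p = 0.41 for Bub1b).

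Centromere and chromosome proteins held the 3 mitosis genes whose C1q libraries all lay above the vehicle libraries. Cenpf, a large kinetochore protein, had 239, 236 and 273 normalised reads in the C1q libraries, against 169.6, 221 and 191 in the vehicle libraries (log2 fold change 0.37 ± 0.13, adjusted p = 0.0651). Cenpe, the kinetochore kinesin, had 214, 217 and 199 normalised reads in the C1q libraries, against 182, 185 and 170.0 in the vehicle libraries (log2 fold change 0.23 ± 0.11, adjusted p = 0.127). Mki67, the Ki-67 protein that coats mitotic chromosomes and is the usual marker of cycling cells, had 748, 711 and 934 normalised reads in the C1q libraries, against 552, 698 and 646 in the vehicle libraries (log2 fold change 0.33 ± 0.13, adjusted p = 0.081). The gap is small for Mki67 and Cenpf, and none of the 3 genes passed, though Cenpf passed without vehicle replicate 2 (adjusted p = 0.0345).

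Among the 3 centromere genes the count called by limma-trend was 0, 1 (Cenpf) at an unadjusted p under 0.05, and also 0 by edgeR and DESeq2. Top2a, the topoisomerase that untangles sister chromosomes, had 915, 914 and 943 normalised reads in the C1q libraries, against 1093, 1001 and 1046 in the vehicle libraries, without overlap but with a small difference (log2 fold change -0.18 ± 0.065, adjusted p = 0.0634). Its adjusted p was 0.048 without vehicle replicate 2, past the threshold, and 0.0314 with edgeR. Cenpa, the centromeric histone, had 146, 114 and 143 normalised reads in the C1q libraries, against 186, 230.1 and 128 in the vehicle libraries (log2 fold change -0.40 ± 0.23, adjusted p = 0.212), and passed without vehicle replicate 3 (adjusted p = 0.0215). Mki67 and Top2a, which are often read together as proliferation markers, thus had fitted values of opposite sign.

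Spindle motors and microtubule proteins gave 1 call in 6. Tpx2, which nucleates spindle microtubules and activates Aurora A, had 361, 398 and 412 normalised reads in the C1q libraries, against 471, 509.6 and 446 in the vehicle libraries and fell (log2 fold change -0.28 ± 0.093, adjusted p = 0.0453). The call was lost with the replicate number as a block (adjusted p = 0.0551), with DESeq2 (adjusted p = 0.0571), with thinning (adjusted p = 0.316) and without C1q replicate 1, 2 or 3 or vehicle replicate 1 or 2 (adjusted p 0.0756 to 0.154). The kinesins Kif11, which separates the spindle poles, and Kif20a and Kif23, which act in cytokinesis, had log2 fold changes of 0.14 ± 0.15, -0.043 ± 0.094 and 0.080 ± 0.29. The microtubule binders Nusap1 and Hmmr had -0.052 ± 0.22 and 0.093 ± 0.21. All 5 overlapped between groups, with adjusted p of 0.507 to 0.874. Kif20a had the narrowest 95% interval of the 5, -0.26 to 0.18, and Kif23 the widest, -0.59 to 0.75. Kif20a shares 1271 exon bases with Cdc23 and Nusap1 172 with Oip5 on opposite strands, and neither of those partners passed (log2 fold change 0.10 ± 0.066, adjusted p = 0.276 for Cdc23; log2 fold change -0.055 ± 0.27, adjusted p = 0.893 for Oip5).

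**Figure D4:**
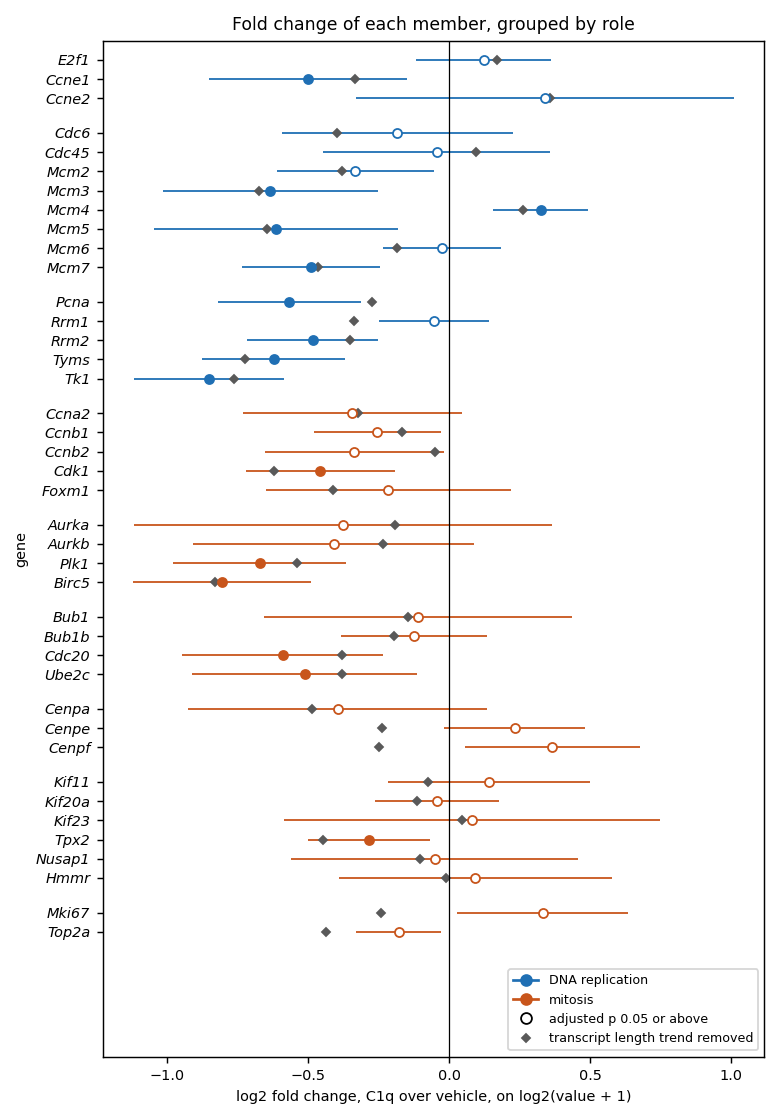
The log2 fold change of C1q over vehicle for each gene with its 95% interval, grouped by role, replication genes in blue and mitosis genes in orange, with filled points for adjusted p below 0.05 and grey diamonds for the value after a transcript length trend was removed. Tk1, Birc5 and Plk1 are among the points farthest to the left, Mcm4 is the filled point to the right of 0, and the diamonds of Cenpe, Cenpf and Mki67 lie left of 0.

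The 3 mitosis genes whose C1q libraries all lay above vehicle are those with the longest transcripts. Cenpf, Mki67 and Cenpe, at 11.1, 10.1 and 7.91 kb, lead all 40 genes by longest annotated transcript. Across the 24 mitosis genes the log2 fold change and log2 length had Pearson r = 0.734 and Spearman rho = 0.678, and across the 16 replication genes r = 0.294 and rho = 0.226, given as a description, since genes of the same 6 libraries are not independent. The same trend ran through the table, with r = 0.419 and rho = 0.467 over the 12454 genes that average 20 normalised reads or more. Genes of 1 to 2 kb had a median log2 fold change of -0.33, those of 3 to 4 kb 0.016 and those over 8 kb 0.55. What produces the trend was not tested.

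The trend was removed in each library by a loess fit of its deviation from the gene mean on log2 length. This changed the calls of the replication genes Ccne1, Mcm2 and Rrm1 and of the mitosis genes Cdc20, Ube2c and Top2a. The signs of the 3 long mitosis genes turned, as did those of Cdc45, Kif11 and Hmmr. Mcm4 remained higher (log2 fold change 0.26, adjusted p = 0.029), 9 replication genes were called lower, with Mcm2 and Rrm1 gained and Ccne1 lost, and that fit called 18.8% of all genes lower and 14.6% higher. Rrm1 stood at -0.34 (adjusted p = 0.0205). In mitosis 5 genes were called lower, Cdk1, Plk1, Birc5, Tpx2 and, newly, Top2a (-0.44, adjusted p = 0.00178), while Cdc20 and Ube2c missed the threshold (adjusted p = 0.0734 and 0.103). The log2 fold changes of Mki67, Cenpe and Cenpf became -0.24, -0.24 and -0.25, none of them past the threshold (adjusted p = 0.226, 0.151 and 0.241). The direction of these 3 genes therefore depends on how the length trend is handled.

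**Figure D5:**
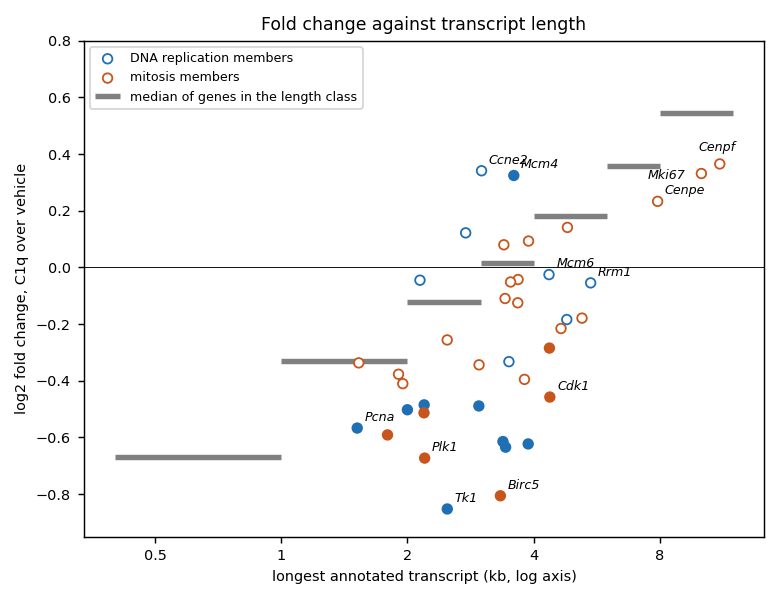
The log2 fold change of each cell cycle gene against the length of its longest annotated transcript (kb, log axis), replication genes in blue and mitosis genes in orange, filled where the adjusted p is below 0.05, with grey bars for the median of all genes that average 20 normalised reads or more in each length class. The grey bars climb with length, and Mcm4 lies above the bar of its class while Mki67, Cenpe and Cenpf lie below theirs.

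A wider set of cell cycle genes, 130 in 5 lists that hold none of the 40, gave 34 lower and 6 higher, beside 18.7% of all genes lower and 19.7% higher, with a median log2 fold change of -0.23. Of 46 further replication genes 12 fell and 3 rose, and of 50 further mitosis genes 14 fell and 1 rose, with medians of -0.25 and -0.22. The genes that rose in these lists are not among those named below, which were picked by lowest p and highest mean. Without C1q replicate 1, 2 and 3 in turn, 22, 21 and 21 of the 130 were lower and 3, 2 and 4 higher, beside 14.2%, 14.2% and 13.6% of all genes lower and 14.4%, 14.0% and 14.1% of all genes higher. Cdt1, which with Cdc6 loads the helicase, had 129.6, 147 and 153 normalised reads in the C1q libraries, against 287, 376 and 315 in the vehicle libraries (log2 fold change -1.17 ± 0.14, adjusted p = 0.000692). Dbf4, the activator of the kinase Cdc7 that fires origins, had 153, 121 and 141 normalised reads in the C1q libraries, against 298, 293 and 281 in the vehicle libraries (log2 fold change -1.07 ± 0.12, adjusted p = 0.000661). The fitted falls of both exceed those of the 40 genes, with wide gaps between the groups.

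Fen1, the flap nuclease of lagging strands, and Dut, the dUTPase that spares thymidylate, fell as well (log2 fold change -0.67 ± 0.11, adjusted p = 0.00281 for Fen1; log2 fold change -0.53 ± 0.076, adjusted p = 0.00154 for Dut), and Rpa1, a single-strand binding subunit, fell by less (log2 fold change -0.26 ± 0.075, adjusted p = 0.0309), a call lost without C1q replicate 1, 2 or 3 or vehicle replicate 1 or 3 (adjusted p 0.0583 to 0.112). With thinning, Fen1 and Rpa1 had adjusted p = 0.0601 and 0.187. Fen1 shares 1909 exon bases with Gm10143 and 130 with Tmem258 on the opposite strand. In the mitosis list the condensin subunit Ncaph had 147, 151 and 138 normalised reads in the C1q libraries, against 242, 268 and 225 in the vehicle libraries (log2 fold change -0.75 ± 0.12, adjusted p = 0.00228). The chromosome-arm kinesin Kif22, cyclin F (Ccnf) and the checkpoint protein Bub3 fell by 0.80, 0.80 and 0.43 on the log2 scale (limma-trend adjusted p = 0.00342, 0.00372 and 0.00177). The condensin subunit Smc4, which had the highest mean of that list over all 6 libraries in normalised reads not divided by length, did not pass (log2 fold change -0.10 ± 0.081, adjusted p = 0.387). In promoter windows of these lists the E2F motif was matched in 30.4% (replication) and 8.16% (mitosis), and the CHR in 13.0% and 65.3%.

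Upstream of both phases, the G1 kinase Cdk4 and 4 CDK inhibitors were lower, and cyclin D2 and the pocket protein Rbl2 were higher. Cdk4, the kinase partner of D cyclins, had 3605, 3818 and 3431 normalised reads in the C1q libraries, against 7622, 8634 and 6925 in the vehicle libraries, a wide separation (log2 fold change -1.09 ± 0.094, adjusted p = 0.000272). Ccnd2, cyclin D2, had 8825, 10062 and 7088 normalised reads in the C1q libraries, against 5695, 6968 and 3834 in the vehicle libraries and rose (log2 fold change 0.68 ± 0.22, adjusted p = 0.0439), a call lost without C1q replicate 1 or 2 or vehicle replicate 1 or 3 (adjusted p 0.0624 to 0.139) and after removal of the length trend (adjusted p = 0.32). Ccnd1, cyclin D1, did not pass (log2 fold change 0.21 ± 0.23, adjusted p = 0.495), nor did Cdk2 (log2 fold change -0.27 ± 0.092, adjusted p = 0.0561) or the phosphatase Cdc25a (log2 fold change -0.29 ± 0.15, adjusted p = 0.158). Cdk2 passed without vehicle replicate 3 (adjusted p = 0.0376) and Cdc25a without vehicle replicate 3 (adjusted p = 0.0344). Of the 9 genes of the G1 list 1 fell and 1 rose, beside 18.7% of all genes lower and 19.7% higher. Cdk4 shares 641 exon bases with Tspan31 on the opposite strand. Ccnd1 shares 1100 with LTO1, and Ccnd2 shares 368 with 9330179D12Rik and 372 with Gm43126, also on the opposite strand.

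Among 10 CDK inhibitors and pocket proteins 4 fell and 1 rose, beside 18.7% of all genes lower and 19.7% higher. Cdkn1a, the inhibitor induced by p53, had 3354, 3340.0 and 2516 normalised reads in the C1q libraries, against 13363, 7669 and 5016 in the vehicle libraries. The vehicle libraries differ widely among themselves, yet all lie above the C1q libraries, and Cdkn1a fell (log2 fold change -1.40 ± 0.32, adjusted p = 0.0113). The muscle markers fell in the same order from vehicle replicate 1 to 3. Their sums there were 24300, 13900 and 7720 normalised reads for muscle stem cell and myoblast markers, and 56700, 32200 and 14700 for myofibre markers. The part of muscle cells in the Cdkn1a values was not tested. Cdkn2c, an inhibitor of Cdk4 and Cdk6, had 343, 356 and 367 normalised reads in the C1q libraries, against 533, 588 and 599 in the vehicle libraries (log2 fold change -0.69 ± 0.084, adjusted p = 0.000805), and Cdkn1c, an inhibitor linked to quiescence, had 1766, 1961 and 1561 normalised reads in the C1q libraries, against 2698, 3713 and 2296 in the vehicle libraries (log2 fold change -0.70 ± 0.17, adjusted p = 0.0157), a call lost without C1q replicate 3 (adjusted p = 0.0596). Rbl2, the pocket protein of quiescent cells that sits with MuvB on cell cycle promoters, had 2518, 2231 and 2450.4 normalised reads in the C1q libraries, against 1333, 1129.7 and 1458 in the vehicle libraries and rose (log2 fold change 0.88 ± 0.10, adjusted p = 0.000685). Rbl2 shares 693 exon bases with Aktip and 892 with Gm45464 on the opposite strand, and Cdkn1c shares 625 with Gm44732. Cdkn1b did not pass (log2 fold change 0.36 ± 0.15, adjusted p = 0.097), but did with the replicate number as a block (adjusted p = 0.0288) and without vehicle replicate 3 (adjusted p = 0.00177).

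Of the 15 E2F and MuvB factors 3 were lower, a share close to the 18.7% of all genes. They were E2f4 (log2 fold change -0.25 ± 0.070, adjusted p = 0.0249), Lin37 (log2 fold change -0.49 ± 0.12, adjusted p = 0.0146) and Rbbp4 (log2 fold change -0.24 ± 0.064, adjusted p = 0.0196). E2f4 is the repressor E2F of quiescent cells, and Lin37 and Rbbp4 encode MuvB subunits. Rbbp4 shares 782 exon bases with Sync and 796 with Gm26722 on the opposite strand. E2f3 did not pass (log2 fold change 0.24 ± 0.090, adjusted p = 0.0712). The call of E2f4 was lost without C1q replicate 1, 2 or 3 or vehicle replicate 1 (adjusted p 0.0524 to 0.0997) and that of Rbbp4 without C1q replicate 1, 2 or 3 or vehicle replicate 1 (adjusted p 0.0589 to 0.0722). With the length trend removed, E2f4 and Lin37 lost their calls (adjusted p = 0.448 and 0.44). Lower Cdk4, E2f4, Lin37 and Rbbp4, the 4 lower CDK inhibitors, and higher Ccnd2 and Rbl2 stood beside lower replication genes in the same libraries. The order of these changes in time cannot be read from these libraries.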

How the data were processed

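RNA of 3 C1q and 3 vehicle libraries of FAPs was analysed. The values deposited by the authors are a signal: the reads of each gene over the size factor of its library. The submitters' processing notes name Trimmomatic, HISAT2, featureCounts, DESeq2 and mm10 as build, and the strand setting is not given in the sources used. In all libraries 100% of values were whole multiples of a single read within 0.001, so reads were recovered (5379209 to 38861152 per library), and edgeR on them called 3351 genes higher and 3595 lower of 14304. Their totals limit precision, and counting error is only part of the spread. No gene has a mean below 1.00.

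The table IDs were matched to a RefSeq gene table of GRCm38.p6 (16077 of 16671 with a symbol) and to the longest transcripts of GENCODE vM21 (14934 IDs, 89.6%, and all 40 cell cycle genes). The comparison used limma-trend (limma 3.58.1, R 4.3.3) on log2(value + 1) for genes averaging 1 or more, Benjamini-Hochberg adjusted over 16671 genes, with calls at adjusted p below 0.05. The scale understates changes of low genes. Intervals are 95% intervals of the fit. Alternatives were other pseudocounts (0.5 and 5) and filters (an average of 20 or more, or none), edgeR 4.0.16 and DESeq2 1.42.0 on recovered reads, a block for the replicate number, fits without each library in turn, binomial thinning to 5379209 reads, and a correction for transcript length, with and without the block. That correction took out, in each library, a loess trend of the deviation from the gene mean on log2 length (span 0.5, fitted to genes averaging 20 or more). The fits were tested on simulated data.

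Deviations of same-numbered libraries from their group means correlated at 0.123, 0.175 and 0.132, all above 0.1. Libraries of different number correlated at -0.132 to 0.005. Deviations from a group mean cancel within the group, so these correlations are not independent, and whether they exceed chance was not tested. The labels do not say what the numbers mark, so a pairing is read from these data only. The main test and its p-values leave this pairing out, and a block for the replicate number was run as an alternative. No replicate pair agreed within sampling noise (chi-square per degree of freedom 17.6 to 42.9).

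The 40 genes, the 5 further lists and the marker lists were chosen with earlier results of these data known. Named are all 40, and from each further list up to 4 genes with the lowest p and the gene with the highest mean, with Ccnd1, Ccnd2, Cdkn1a, Cdkn1b and Cdkn1c in any case, and genes that overlap a member.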

Additional observations from a re-analysis of the deposited data

How the results depend on the processing

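Replication and mitosis genes kept a negative median log2 fold change in each fit that leaves out 1 library, from -0.47 to -0.331 and from -0.312 to -0.142. With the length trend removed, the medians were -0.345 (replication) and -0.240 (mitosis). Leaving out 1 library gave 5 to 9 replication genes lower and 1 higher, 2 to 11 mitosis genes lower and 0 to 1 higher, and 21 to 46 lower and 2 to 7 higher of the further 130. Thinning every library to 5379209 reads gave 0 replication genes higher, 6 lower, and 3 mitosis genes lower, beside 15.2% of all genes higher and 14.6% lower, and ended the calls of Ccne1, Mcm3, Mcm4, Birc5, Ube2c and Tpx2. Removal of the length trend gave 3 higher and 30 lower of the further 130, beside 14.6% of all genes higher and 18.8% lower. Of 64 named genes, the replicate block changed the call of Mcm2, Cdkn1b and Tpx2 (adjusted p = 0.0407, 0.0288 and 0.0551) and of no other, and it called 9 replication and 5 mitosis genes lower, beside 19.7% of all genes lower and 21.3% higher.

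Signs that turned all belong to genes below the threshold. With the length trend removed, with or without the replicate block, log2 fold changes were 0.10 (Cdc45), -0.24 (Cenpe), -0.25 (Cenpf), -0.075 (Kif11), -0.010 (Hmmr), -0.24 (Mki67) and -0.0075 (E2f3). With thinning they were 0.062 (Cdc6), 0.036 (Mcm6), 0.0013 (Foxm1), 0.013 (Bub1b), 0.078 (Kif20a) and 0.027 (Nusap1). Kif23 was -0.10 with edgeR, -0.087 with DESeq2's size factors in edgeR and -0.069 with DESeq2, and Hmmr -0.0061 with edgeR. Without 1 library, values ran over -0.14 to 0.028 (Cdc45), -0.10 to 0.054 (Mcm6), -0.11 to 0.011 (Rrm1), -0.29 to 0.093 (Bub1), -0.086 to 0.0090 (Kif20a), -0.26 to 0.31 (Kif23), -0.27 to 0.16 (Nusap1), -0.12 to 0.27 (Hmmr) and -0.043 to 0.37 (Ccnd1). The cause of each was not tested.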
